A study of Danio rerio with 69 samples.

Results

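Brain of adult zebrafish (Danio rerio) was compared at 3 months and at 1 to 2 years of age, on 12 of the 69 arrays of a study of the pineal gland. The arrays were chosen by their labels alone, as all those of brain at these ages. There were 6 at each age, 3 sampled by day and 3 by night. Each measured total RNA of 1 tissue sample on a 1-colour Affymetrix Zebrafish Genome Array, and the labels call the samples of a group biological replicates. The study took its pineal glands from fish with a transgene that makes green fluorescent protein from the aanat2 promoter, and collected the brain tissue beside them. The fish of both ages were kept at 28.5 °C with 14 h of light and 10 h of dark. The tissue called brain had lost its pineal gland and eyes at dissection. The labels give one age class of 1 to 2 years, and no sex, clutch or hybridisation date, nor the number of fish behind a sample. Age and rearing cohort can therefore not be told apart.

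The adult brain of teleost fish keeps radial glia that divide and give rise to new neurons, and young neurons pass through a phase in which SoxC transcription factors and growth-associated cytoskeletal genes are active. Growth of the brain and skull slows between the young adult and the old fish. Fish red blood cells keep their nuclei and carry globin RNA, so a brain taken with its blood vessels also yields red cell transcripts.

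Intensities were compared as log2 values after quantile normalization. Correlations within a group of adult brain arrays, each the mean of an array's correlations with the rest of its group over all probe sets, ranged from 0.906 to 0.967. The arrays differed in how far the 3' signal of the GAPDH control exceeded its 5' signal, a ratio that can rise where RNA is degraded or copied short. By day this ratio was 3.40, 5.58 and 1.64 on the 3-month arrays and 13.8, 17.2 and 1.27 on the 1-2-year arrays 1 to 3. By night it lay between 1.21 and 1.42 on all 6 arrays. The 4 arrays above 3 were thus all day arrays, and the 2 highest were of old brain. The panneuronal gene elavl3, chosen after its values were seen, read 9.54 and 9.49 on those 2 arrays and 12.48 on the remaining old day array. Its age difference was -0.77 ± 0.41 (limma, SE, adjusted p = 1.00) over all arrays and 0.22 ± 0.46 without those 2. For that reason many of the averages of day and night are also given without the 4 high-ratio arrays. That fit left out all 11 arrays of the study with a ratio above 3, these 4 among them. Its shared spread thus also rests on fewer larval and pineal arrays. Such a fit leaves 1 young and 1 old array by day, array 3 of each, and takes the spread of both from the other groups, so its p-values assume that these lone arrays vary like the rest. Values for the day alone are given over all 6 day arrays.

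**Figure D1:**
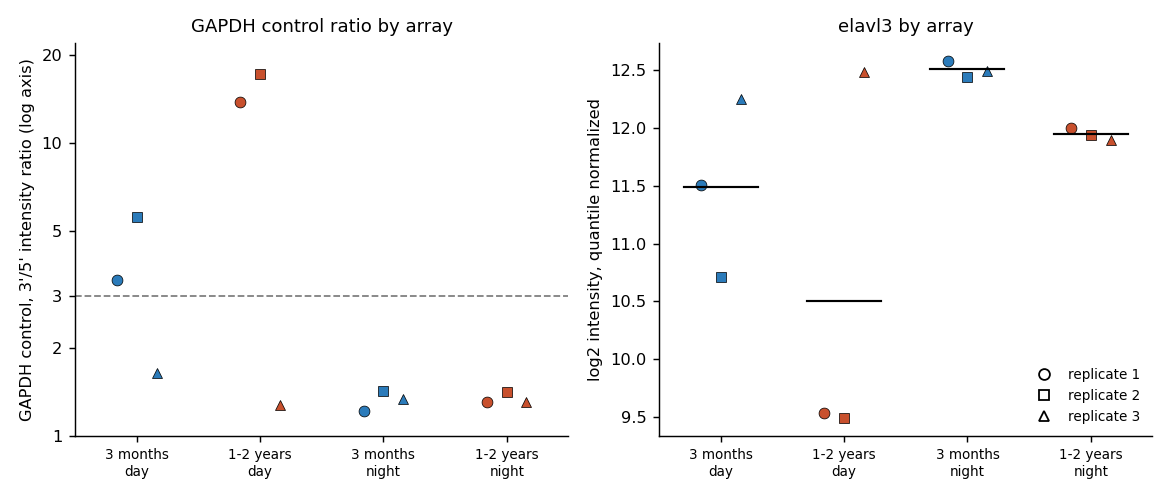
The left panel plots the GAPDH 3'/5' ratio of each adult brain array on a log axis, with a dashed line at 3, and the right panel plots log2 intensity of elavl3 on the same arrays (bars, group means; symbols, replicate numbers). The old day arrays 1 and 2, with ratios of 13.8 and 17.2, have the lowest elavl3 values of the 12.

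Age was tested as 1-2 years minus 3 months, averaging the day and the night difference at equal weight, with limma over 15502 probe sets. At a Benjamini-Hochberg adjusted p below 0.05, 13 probe sets were called, which is 0.0839% of those tested. Of these, 1 was higher in old brain (0.00645%) and 12 were lower (0.0774%), and 8 also changed at least 2-fold (0.0516%). Without correction for multiple tests, 457 probe sets (2.95%) had a p below 0.05, with 161 higher (1.04%) and 296 lower (1.91%). The median change over the 8793 genes with a symbol was 0.02, with quartiles of -0.15 and 0.18. The age groups did not overlap, so that all 6 old arrays lay on one side of all 6 young ones, for 46 probe sets (0.297%). Leaving out 1 adult brain array at a time gave between 1 and 34 calls, the fewest without old night array 2 and the most without old day array 3.

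The called probe sets that carried a gene name stood for 8 genes (0.091% of 8793). Lower in old brain were ing4, hmga1a, sox4a, col1a1a, icn2 and 2 genes with clone-type names, and higher was hbba2. A further 3 called probe sets, all lower, are unnamed here. The fit of the 12 adult brain arrays alone, with their own spread, called only 1 probe set, that of ing4. The other genes were thus not called there.

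The chromatin regulator ing4 had the smallest adjusted p. Its product belongs to the inhibitor of growth family, which in mammals reads methylated histone within a histone acetyltransferase complex. At 3 months it measured 12.15, 11.83 and 12.29 by day and 12.32, 12.52 and 12.58 by night. At 1-2 years it measured 10.85, 10.73 and 11.26 by day and 11.76, 11.59 and 11.46 by night. Every old array lay below every young one, by day and by night alike. The change was -1.01 ± 0.14, or 2.01-fold lower (limma, adjusted p = 5.19e-06), with -1.15 by day and -0.87 by night. The call held under all 27 alternatives tried, with changes from -1.09 to -0.85. Without the 4 high-ratio arrays, with 1 array against 1 by day, the change was -0.95 (adjusted p = 0.00364). A second, dim probe set of ing4, with means of 6.13 and 5.39, differed by -0.73 ± 0.41 and was not called.

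The architectural chromatin protein hmga1a, an AT-hook factor abundant in embryonic cells, was 1.56-fold lower. Young brain measured 12.60, 12.15 and 12.27 by day and 12.79, 12.71 and 12.42 by night. Old brain measured 11.09, 11.19 and 12.01 by day and 12.33, 12.36 and 12.09 by night. The ages did not overlap by day, nor did they by night. Across the times, 2 of the old night arrays lay within the range of the young day arrays. A second probe set did overlap by day, at 11.79 to 12.23 in young and 10.92 to 12.06 in old brain. Further probe sets of hmga1a were not called. On the probe set quoted first the change was -0.65 ± 0.13 (limma, adjusted p = 0.0129), and the second gave -0.64 with the same adjusted p. Without the 4 high-ratio arrays the change was -0.32 (adjusted p = 1.00), and without the old day arrays 1 and 2 alone it was -0.35. Single arrays also decided the call, which was lost on leaving out any one of 7 arrays, with adjusted p from 0.0534 to 0.209. These were young day array 1, young night arrays 1 and 2, old day arrays 1 and 2 and old night arrays 2 and 3.

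Among 59 genes of chromatin and epigenetic regulation, 9 were lower and 1 higher at unadjusted p below 0.05, against 2.04% lower and 1.03% higher among all genes. Their median change was -0.12. The lower ones included dnmt3ba (-0.70), which methylates DNA de novo, ezh2 (-0.55), the methyltransferase of Polycomb, and the nucleosome binding protein hmgn7 (-0.66). By night hmgn7 differed by -0.03, and by day by -1.29 (limma, adjusted p = 0.0375). Old day arrays 1 and 2, of highest GAPDH ratio, read 11.17 and 10.75 for it. Old day array 3 read 12.67, within the 12.36 to 13.13 of the young day arrays. With the GAPDH ratio as a covariate over all arrays, 6 of the 59 were lower at unadjusted p below 0.05 (1.72% of all genes). The median was then -0.05. Without the high-ratio arrays only 1 of the 59 was lower at that threshold and the median was -0.05, against 1.65% lower among all genes in the same fit.

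The SoxC transcription factor sox4a, which acts in newly born neurons, fell 1.72-fold. Young brain measured 12.11, 11.78 and 12.44 by day and 12.17, 12.32 and 12.28 by night. Old brain measured 11.50, 11.92 and 11.79 by day and 11.06, 11.17 and 10.98 by night. The groups were far apart by night, while by day young array 2 lay below old arrays 2 and 3. The change was -0.78 ± 0.17 (limma, adjusted p = 0.0307), with -0.38 by day and -1.19 by night. The difference between the night and day effects was not called. The call was lost on leaving out any one of 9 arrays (adjusted p from 0.0605 to 0.278), all except young day array 2 and old day arrays 2 and 3, although the change stayed between -0.86 and -0.70. Once the high-ratio arrays were left out, it was -0.92 (adjusted p = 0.258).

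Neural progenitor and neurogenesis genes numbered 54, of which 9 were lower and 0 higher at unadjusted p below 0.05 (2.04% and 1.03% of all genes), with sox4a the one that was called. Their median change was -0.15, and 36 of 54 were below 0, where 46.6% of all genes were. The related factor sox11a had a change of -0.66 ± 0.18 (limma, adjusted p = 0.255). On a second sox11a probe set with a change of -0.68, every old array lay below every young one, with 11.20 to 11.90 in old and 11.91 to 12.35 in young brain. The beta tubulin tubb5, expressed in growing neurons, measured 11.80 to 13.18 in young and 10.52 to 11.84 in old brain, with 1 young array below the highest old one. Its change of -1.40 ± 0.37 was not called (adjusted p = 0.209), nor was that of its other probe set at -1.27. Smaller uncalled differences were those of the actin-binding thymosin tmsb (-0.87), the proneural factor ascl1a (-0.50) and hmgb3a (-0.41). The neurogenic factor neurod1 differed by 0.03 ± 0.24. After removal of the high-ratio arrays 4 of the 54 were lower (1.65% of all genes) and the median was -0.17.

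**Figure D2:**
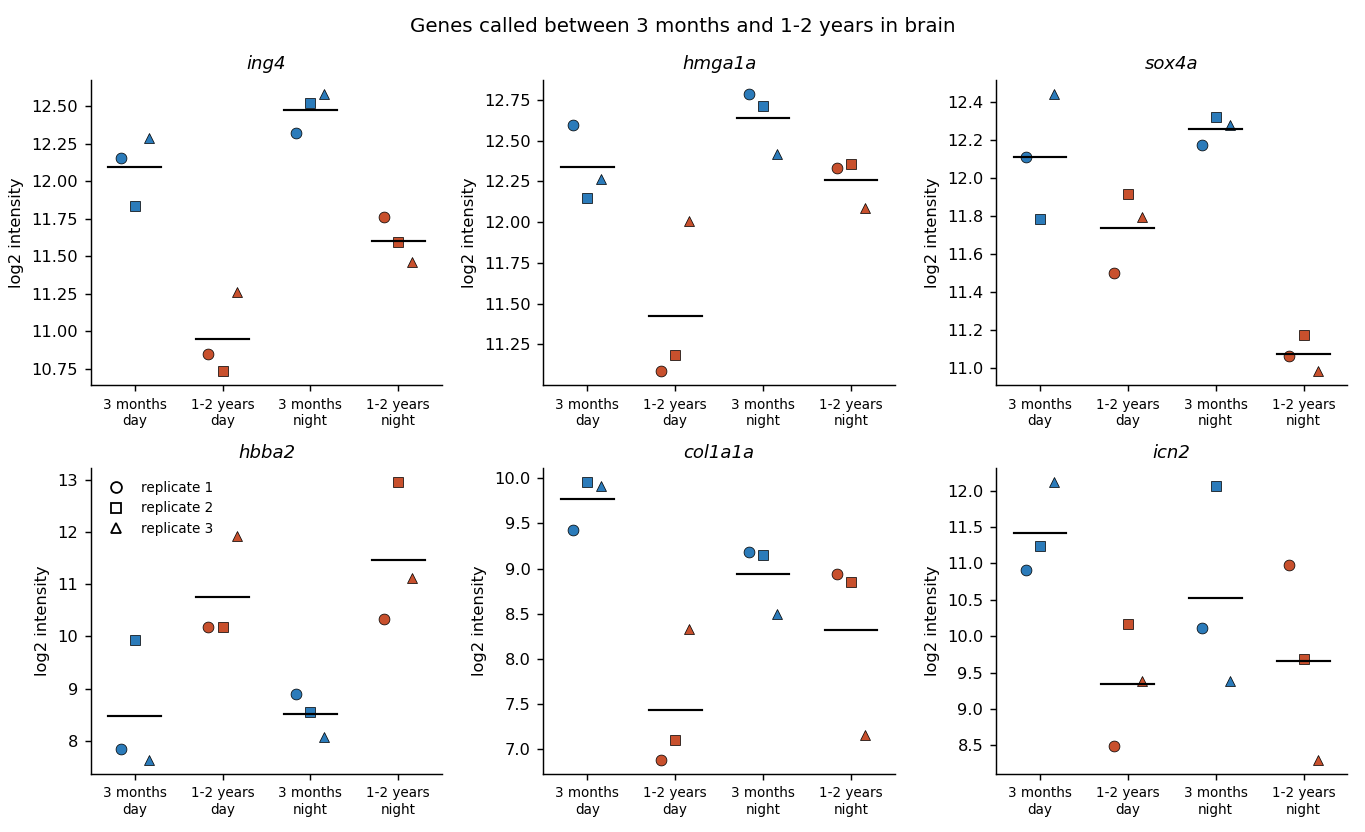
Log2 intensity of the 6 genes called between the ages and quoted by name, per array (symbols, replicate numbers; bars, group means), with the vertical axis of each panel fitted to its gene. The 2 ages do not overlap for ing4 and hbba2, and overlap in at least 1 array for hmga1a, sox4a, col1a1a and icn2.

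Cell division genes had a median change of -0.37 over 47 genes, and 37 of them were below 0, where 46.6% of all genes were. At unadjusted p below 0.05, 8 were lower and 0 higher, against 2.04% and 1.03% of all genes, and 0 were called. By day alone 6 were lower at that threshold (2.98% of all genes) and by night alone 0 (1.02%). The 8 included the mitotic kinases cdk1 (-1.03) and plk1 (-0.78), the dUTPase dut (-1.07), uhrf1 (-1.06), which guides maintenance methylation at replication, and the cyclin ccnd1 (-0.51). Another ccnd1 probe set had a change of -0.95 ± 0.22 (limma, adjusted p = 0.0715), just outside the threshold. The list was dim, with a median log2 level of 6.55 to 7.17 over the arrays, and cdk1 read 6.46 to 7.62 in young and 4.92 to 7.37 in old brain. The member of highest level, the replication protein rpa1, differed by 0.04. With the GAPDH ratio as a covariate, 5 of the 47 were lower at unadjusted p below 0.05 (1.72% of all genes). The median was then -0.29. On removal of the high-ratio arrays 1 of the 47 was lower (1.65% of all genes) and the median was -0.18. With 1 array left out at a time the number lower was 4 to 9, where 1.41% to 3.47% of all genes were lower. It was 4 without young day array 1 or 3, old day array 1 or 2 or old night array 2, and 5 without young night array 2 or 3. In whole tissue, fewer cells of a type and less RNA per cell cannot be told apart, here or for the other cell types below.

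The adult beta globin hbba2 showed the largest rise. Young brain measured 7.84, 9.92 and 7.63 by day and 8.89, 8.55 and 8.06 by night. Old brain measured 10.19, 10.18 and 11.94 by day and 10.33, 12.96 and 11.12 by night. Every old array lay above every young one, the closest pair being 9.92 and 10.18. The change was 2.64 ± 0.54, or 6.22-fold (limma, adjusted p = 0.0129), with 2.30 by day and 2.97 by night. The call was lost without young day array 1 (0.0806), young day array 3 (0.103), young night array 2 (0.0515) or old night array 2 (adjusted p = 0.176), while the change lay between 2.26 and 3.00 whichever array was left out. An added constant of 1 in place of 16 gave an adjusted p of 0.205. In the fit of the 12 arrays alone hbba2 was not called either. With the high-ratio arrays left out, with 1 array against 1 by day, the change was 3.64 (adjusted p = 0.0466). The near-identical copy hbba1 was matched to no probe set, so the signal may belong to either gene.

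Other red cell genes had smaller differences that were not called. The alpha globin hbaa1 measured 13.30 to 15.03 in young and 12.94 to 14.96 in old brain, a change of 0.19 ± 0.49. Uncalled differences were 0.42 for alas2, which starts heme synthesis, 0.48 for the anion exchanger slc4a1a and 0.21 for the carbonic anhydrase cahz. Over the 22 red cell genes the median was 0.25, with 16 above 0 (53.4% of all genes). At unadjusted p below 0.05, 2 were higher (1.03% of all genes). The second of these, nt5c2l1, did not overlap between the ages, at 8.86 to 9.46 in young and 9.66 to 10.56 in old brain (0.84 ± 0.31, limma, adjusted p = 1.00). The summed intensity of the list ranged from 18226 to 44311 on young and from 19125 to 50368 on old arrays. The part of blood content in the hbba2 result was not tested.

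The type I collagen gene col1a1a, which encodes a main fibre of bone and skin, fell with age. It measured 9.42, 9.95 and 9.92 by day and 9.18, 9.15 and 8.49 by night at 3 months. At 1-2 years it measured 6.88, 7.11 and 8.33 by day and 8.94, 8.85 and 7.16 by night. The ages were separate by day and overlapped by night. The change was -1.47 ± 0.33, or 2.78-fold lower (limma, adjusted p = 0.0469), with -2.32 by day and -0.63 by night. The second chain gene, col1a2, differed by -0.82 ± 0.29 and was not called. The call of col1a1a was lost on leaving out any one of 9 arrays (adjusted p from 0.0642 to 0.428), all except young night array 3, old day array 3 and old night array 1. Without the high-ratio arrays the change was -1.11 (adjusted p = 1.00).

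The type X collagen gene col10a1b, a product of mineralising cartilage and bone, lay just outside the threshold with a change of -2.68 ± 0.63 (limma, adjusted p = 0.0715). It measured 9.0, 9.75 and 8.10 by day and 8.85, 7.70 and 6.48 by night in young brain. In old brain it measured 4.39, 4.49 and 6.09 by day and 6.47, 6.33 and 6.04 by night. All old arrays lay below all young ones, the closest pair being 6.47 and 6.48. By day the change was -3.96 (adjusted p = 0.0427). The 2 lowest old day readings, intensities of 3.8 and 5.6, lie near the floor that the added constant of 16 sets, and no detection call was used here. The size of the change therefore depends on that constant, at -3.38 with 1 and -1.89 with 64. Its paralog col10a1a differed by -1.06. Over 58 genes of connective tissue, cartilage and bone the median was 0.00. At unadjusted p below 0.05, 4 were lower and 1 higher, against 2.04% and 1.03% of all genes.

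The epithelial calcium-binding protein ictacalcin, icn2, was 2.77-fold lower. Young brain measured 10.90, 11.24 and 12.12 by day and 10.12, 12.07 and 9.39 by night. Old brain measured 8.49, 10.17 and 9.39 by day and 10.98, 9.69 and 8.30 by night. The replicates scattered widely within each group and the ages overlapped. The change was -1.47 ± 0.30 (limma, adjusted p = 0.0129), and a second probe set of the same sequence cluster gave -1.44. The fit of the 12 arrays alone, whose spread is that of adult brain, gave an SE of 0.48 and an adjusted p of 0.627. In the fit of all arrays the call was lost without young day array 3, young night array 2, old day array 1, or old night array 2 or 3 (adjusted p from 0.0642 to 0.274). Leaving out the 4 high-ratio arrays gave -1.80 (limma, adjusted p = 0.171). The only young day array in that fit was array 3, which had the highest icn2 value of the 12. In adult pineal glands icn2 read 14.48 to 14.98 on group average.

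Of 56 skin and keratin genes, 41 were below 0 (46.6% of all genes) and the median was -0.36. At unadjusted p below 0.05, 6 were lower and 1 was higher, against 2.04% and 1.03% of all genes. The lower ones included krt17 (-1.11), a keratin, and the claudins cldne (-1.17) and cldnb (-0.88), which seal epithelia. The summed intensity of this list was 10081 to 23118 on young and 7583 to 19100 on old arrays. Without old night array 1, 11 were lower (1.85% of all genes). In the fit without the high-ratio arrays 8 of the 56 were lower (1.65% of all genes) and the median was -0.49. In that fit young day array 3, highest of the 12 for icn2, was the only young day array. The part of skin carried along at dissection was not tested.

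By day alone 14 probe sets were called, 0.0903% of those tested, and all were lower in old brain. By night 0 were called, where 298 (1.92%) had an unadjusted p below 0.05. The difference between the night and day effects was called for 0 probe sets, with 493 (3.18%) at unadjusted p below 0.05, so a difference between the times was not shown for any single gene. Besides genes described above, those called by day were 3 ribosomal protein genes (rps29, rps23 and rpl23) and 3 of phototransduction (pde6ha, gngt1 and gnb3b). The named genes of this group were chosen after their values were seen.

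Ribosomal protein genes, which encode the protein part of the ribosome, lay mostly below 0 by day. Of 75, 71 did so, where 48.2% of all genes did, with a median of -0.41, and 39 were lower at unadjusted p below 0.05, where 2.98% of all genes were. By night 20 were below 0 (47.9% of all genes), the median was 0.11 and 0 were lower at that threshold (1.02% of all genes). For rps29 the young day arrays measured 12.93, 12.47 and 12.76 and the old ones 11.47, 11.31 and 12.24. Its change was -1.04 by day (limma, adjusted p = 0.00413) and 0.12 by night. Old day array 3, whose GAPDH ratio was 1.27, lay closest to the young arrays. Averaged over day and night, 17 of the 75 were lower (2.04% of all genes), with a median of -0.17. With the GAPDH ratio as a covariate 12 were lower (1.72% of all genes), with a median of -0.13. Once the high-ratio arrays were left out, the median was -0.04. Leaving out old day array 3 gave 31 lower (3.47% of all genes), and leaving out old day array 2 gave 6 (1.41%). Leaving out young night array 1, old day array 1 and old night array 3 in turn gave 10 (1.79%), 11 (1.6%) and 9 (2.19%).

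Photoreceptor genes were high on 1 young day array. The cone phosphodiesterase subunit pde6ha measured 9.48, 10.56 and 13.38 by day in young brain, and 8.07, 8.45 and 8.74 in old brain. By night it measured 7.0, 6.22 and 7.36 in young and 7.39, 7.99 and 7.52 in old brain. The cone transducin subunit gnb3b was likewise highest on young day array 3, at 10.75. The summed intensity of 47 photoreceptor, retina and lens genes ranged from 14621 to 50429 on young day arrays and from 9429 to 22544 on the other groups. At unadjusted p below 0.05, 12 of the 47 were lower (2.04% of all genes). The median was -0.24, with -0.82 by day and 0.26 by night. Without young day array 3, 2 were lower (1.46% of all genes) and the median was -0.08. Without young night array 1, 7 were lower (1.79%), and without old day array 2, 6 were (1.41%). Without the 4 high-ratio arrays, which leaves young day array 3 as the only young one by day, the median was -0.91. Eyes had been removed from this tissue, and the part of retinal or pineal remnants was not tested.

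**Figure D3:**
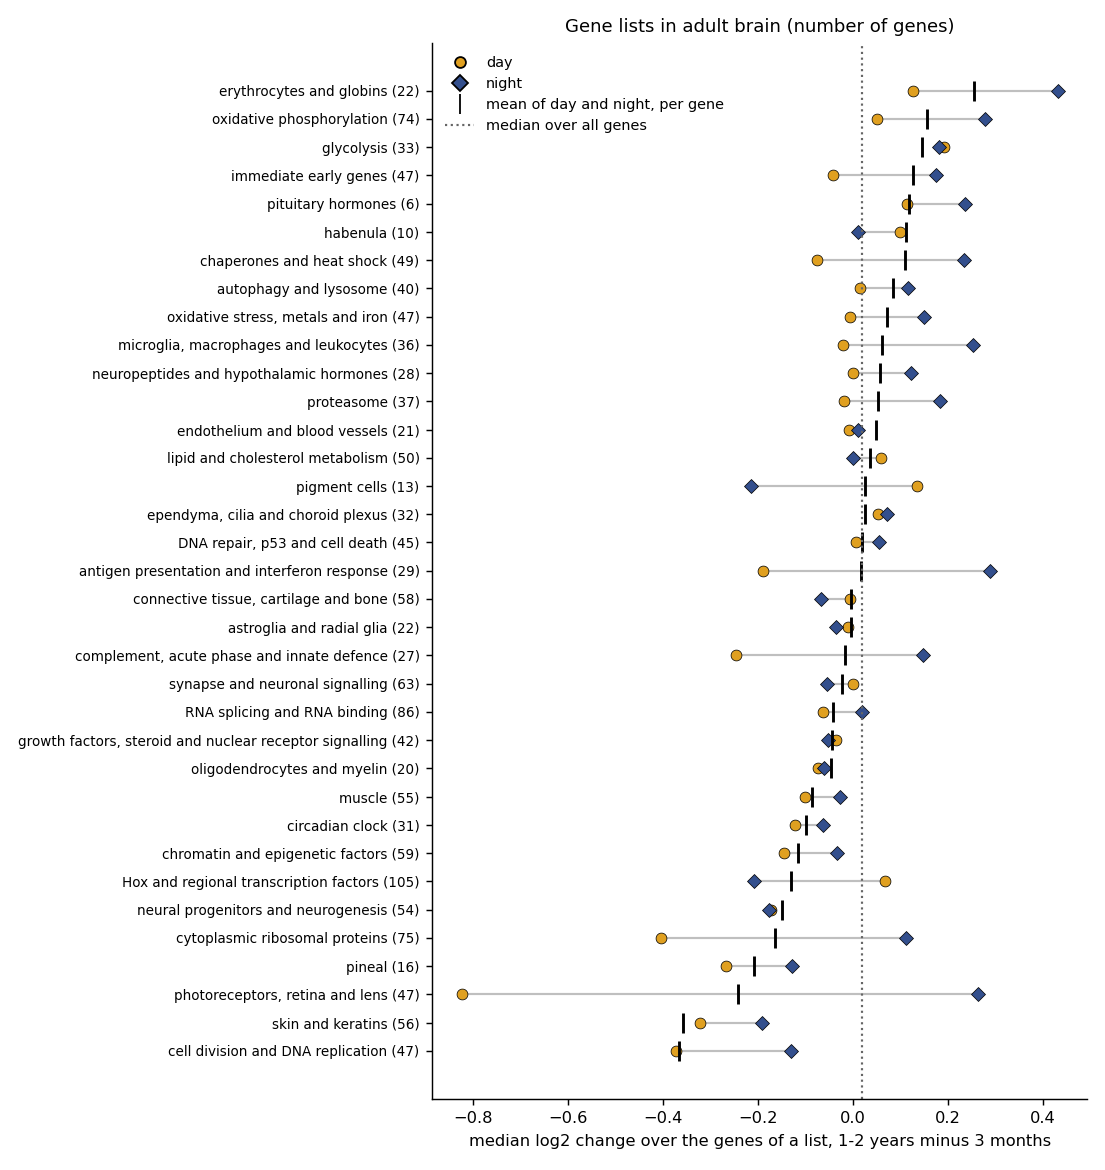
Median log2 change of each of the 35 gene lists (1-2 years minus 3 months) by day (circles), by night (diamonds) and for the mean of both (ticks), with the median of all genes as a dotted line and the number of genes in brackets. Photoreceptor genes (-0.82 by day, 0.26 by night) and ribosomal protein genes (-0.41 by day, 0.11 by night) lie far apart between the times, while cell division genes lie below 0 at both.

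Genes of the main mature brain cell types showed small differences in the averages of day and night. Of 63 genes of synapses and neuronal signalling, 0 were called and 0 had an unadjusted p below 0.05 in these averages, against 0.091% and 3.07% of all genes. Their median was -0.02, and 0.04 without the high-ratio arrays. By day alone 4 of the 63 were lower and 0 higher at that threshold, against 2.98% and 1.48% of all genes. By night alone 2 were lower and 0 higher, against 1.02% and 0.887%. The change of snap25a, which drives vesicle fusion, was 0.01 ± 0.33 on average. Of 20 genes of oligodendrocytes and myelin, 0 passed either threshold, against the same 0.091% and 3.07% of all genes. Their median was -0.05, with mbpa, a main protein of myelin, at -0.18 ± 0.44. Astroglial genes had a median of 0.00 over 22, and 1 was higher at unadjusted p below 0.05 (1.03% of all genes), the creatine kinase ckbb (0.49). The glutamate transporter slc1a2b differed by -0.03 ± 0.22, the glial filament gfap by -0.30 ± 0.29 and brain aromatase, cyp19a1b, which radial glia make in fish, by 0.15 ± 0.45. By night gfap, quoted after its values were seen, read 8.94 to 9.49 in young and 8.28 to 8.66 in old brain. These 3 and 3 arrays did not overlap, but the night difference was not called. By day it read 8.24 to 8.33 in young and 7.94 to 8.80 in old brain. With standard errors of this size, small changes of single genes would not have been detectable. These errors come from the fit of all arrays, so larval and pineal arrays share in them. On the adult brain arrays snap25a read 13.78 to 14.53 and mbpa 13.97 to 14.77. The fit of adult brain arrays alone had 1007 probe sets at unadjusted p below 0.05, against 457 in the fit of all arrays. The counts of 0 for synapse and myelin genes, and for immune genes below, were obtained with the shared spread. Lists this short would hold few genes at the shares of all genes.

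Immune and inflammatory genes held no call. Of 36 genes of microglia, macrophages and leukocytes and of 29 of antigen presentation and interferon response, 0 had an unadjusted p below 0.05 and 0 were called. Of all genes 3.07% and 0.091% did so. Their medians were 0.06 and 0.02 (0.09 and -0.12 without the high-ratio arrays), and differed between the times. For antigen presentation the median was -0.19 by day, with 20 of 29 below 0 (48.2% of all genes). By night it was 0.29, with 4 below 0 (47.9% of all genes). For microglia and leukocytes the median was -0.02 by day and 0.25 by night, with 8 of 36 below 0 by night (47.9% of all genes). The invariant chain cd74a measured 11.15 to 11.87 in young and 10.74 to 12.28 in old brain, a change of 0.04 ± 0.37. Of 27 genes of complement and innate defence 1 was higher at that threshold (1.03% of all genes).

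Genes of energy metabolism lay slightly above 0. Of 74 oxidative phosphorylation genes 59 were above 0, where 53.4% of all genes were, with a median of 0.16. By day their median was 0.05, with 31 below 0 (48.2% of all genes). By night it was 0.28, with 10 below 0 (47.9%). Averaged over both times without the high-ratio arrays, the median was 0.30. Of the 74, 0 were called and 2 were higher at unadjusted p below 0.05 (1.03% of all genes). These were the succinate dehydrogenase subunit sdhb (0.54 ± 0.23) and the ATP synthase subunit atp5mf (0.46 ± 0.18). Of 33 glycolysis genes 29 were above 0, with a median of 0.14. At that threshold 1 was higher and 1 lower (1.03% and 2.04% of all genes). Of 49 chaperones 2 were higher and 0 lower (1.03% and 2.04%), namely hsp90aa1.1 (0.81) and its regulator hsf1 (0.89). The chaperone median was -0.08 by day and 0.23 by night. Averaged over both times it was 0.11, and 0.24 without the high-ratio arrays. Among 31 clock genes 2 were lower and 1 higher at that threshold (2.04% and 1.03% of all genes). The lower ones included nfil3-5, a bZIP repressor, at -0.85 ± 0.24 (limma, adjusted p = 0.313). This gene had its largest values by day at both ages, 10.84 to 11.14 in young and 9.31 to 10.73 in old brain. Among 28 neuropeptide genes the RFamide precursor npffl differed by -2.99 ± 0.77 (adjusted p = 0.170), from 6.38 to 12.50 in young and from 5.07 to 9.04 in old brain.

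Brain arrays of larvae in the same study give the levels of the called genes before adulthood, here as group means. The level of ing4 by day was 13.24 on day 3, 11.91 on day 10, 12.09 at 3 months and 10.95 in the old fish, so the old brain was below every earlier group. For hmga1a the same day means were 14.27, 12.47, 12.34 and 11.43. The last is lowered by old day arrays 1 and 2, of high GAPDH ratio, at 11.09 and 11.19, where array 3 read 12.01. By night hmga1a read 12.42 to 12.79 at 3 months and 12.09 to 12.36 in the old fish. For sox4a the group means were 12.64, 12.40, 12.11 and 11.74 by day, and by night 12.81, 12.16, 12.26 and 11.07. The level of icn2 by day went from 14.21 at 3 days to 12.50, 11.42 and 9.35. By night icn2 read 9.39 to 12.07 at 3 months and 8.30 to 10.98 in the old fish. By day the collagen col1a1a was high at 3 days (12.93), lower at 10 days (8.22), and again higher at 3 months (9.76) than at 10 days or at 1-2 years (7.44). Old day arrays 1 and 2, of high GAPDH ratio, read 6.88 and 7.11 for col1a1a, where array 3 read 8.33. By night col1a1a read 8.49 to 9.18 at 3 months and 7.16 to 8.94 in the old fish. The collagen col10a1b was at 5.1 by day at 10 days, at 8.95 at 3 months and at 4.99 at 1-2 years. By night col10a1b read 6.48 to 8.85 at 3 months and 6.04 to 6.47 in the old fish. The globin hbba2 lay between 4.78 and 5.72 in all larval groups. Its mean by night was 8.5 at 3 months and 11.47 at 1-2 years. By day hbba2 read 7.63 to 9.92 at 3 months and 10.18 to 11.94 in the old fish. Larval ages entered no comparison here, though their arrays share in the estimate of the spread.

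**Figure D4:**
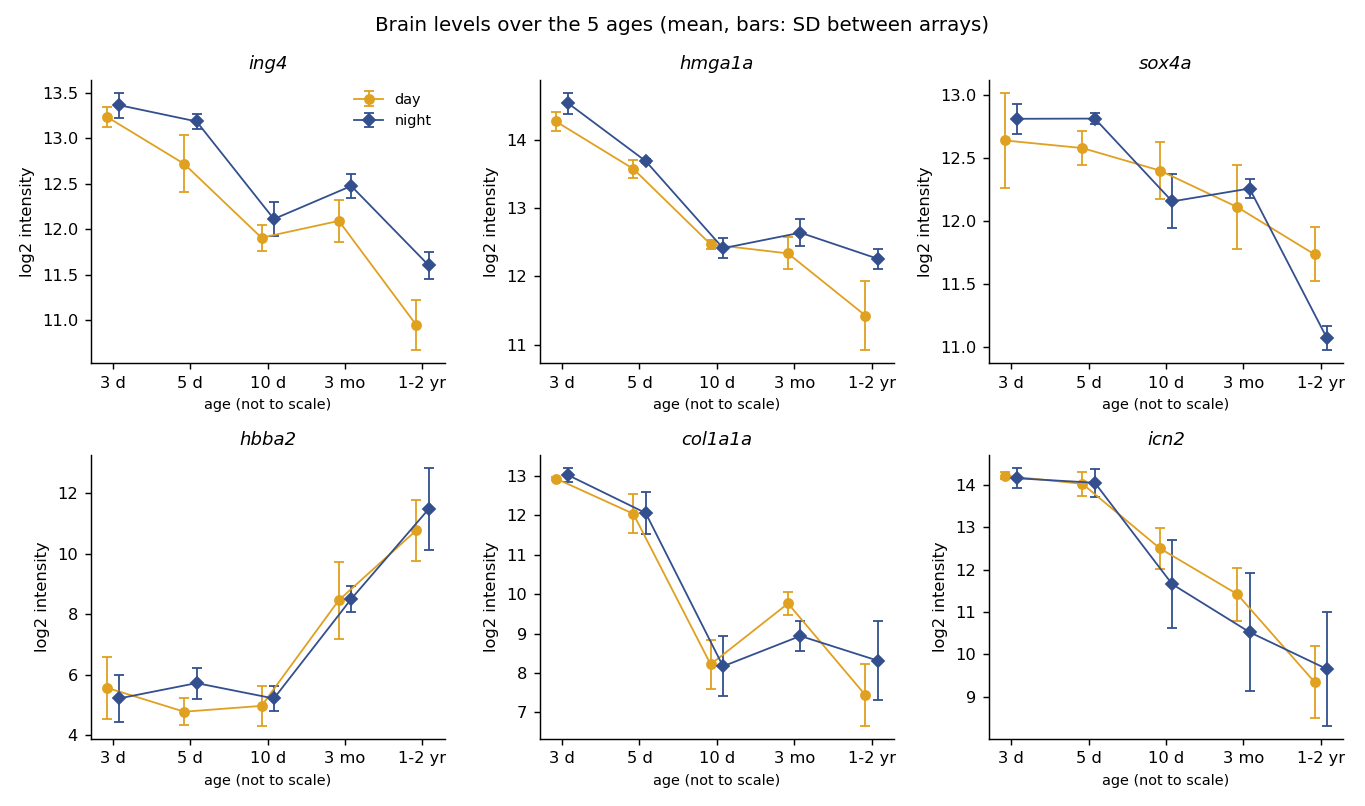
Mean log2 intensity of 6 genes in brain at 5 ages by day (circles) and by night (diamonds), with bars for the SD over the 2 to 4 arrays of a group and ages evenly spaced. The 1-2-year groups have the lowest means of ing4, sox4a and icn2 and the highest of hbba2, while col1a1a is higher at 3 months than at 10 days or 1-2 years.

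The pineal gland of the same ages gave a separate comparison on 14 other arrays, with 3 to 4 per group. In pineal 27 probe sets were called (0.174%), 4 higher and 23 lower in old fish. All 13 probe sets called in brain had the same sign in pineal, where 9140 of all 15502 (59%) did, and 4 of the 13 were called there too. These were ing4 (-0.59, limma, adjusted p = 0.0249), sox4a (-0.81, adjusted p = 0.0108), col1a1a (-2.01, adjusted p = 0.000298) and 1 of the unnamed probe sets (-1.46, adjusted p = 0.00149). That probe set did not overlap between the ages in brain, at 7.35 to 8.09 in young and 5.25 to 6.84 in old. In pineal hbba2 had a change of 2.02 (adjusted p = 0.0614) and col10a1b one of -2.81 (adjusted p = 0.0224). The brain-called hmga1a differed by -0.13 ± 0.12 and icn2 by -0.18 ± 0.28 in pineal. Each of these genes has more than 1 probe set among the 13, so the 13 signs are not independent. The age difference itself differed between the tissues for 0 probe sets (330, or 2.13%, at unadjusted p below 0.05). It was therefore not shown for hmga1a or icn2 either that brain and pineal differ. Whether brain and pineal came from the same fish is not given in the labels. Deviations of brain and pineal arrays of equal number correlated at -0.02 to 0.19 at 3 months and at 0.09 to 0.37 at 1-2 years, so the signs in the tissues may not be independent.

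**Figure D5:**
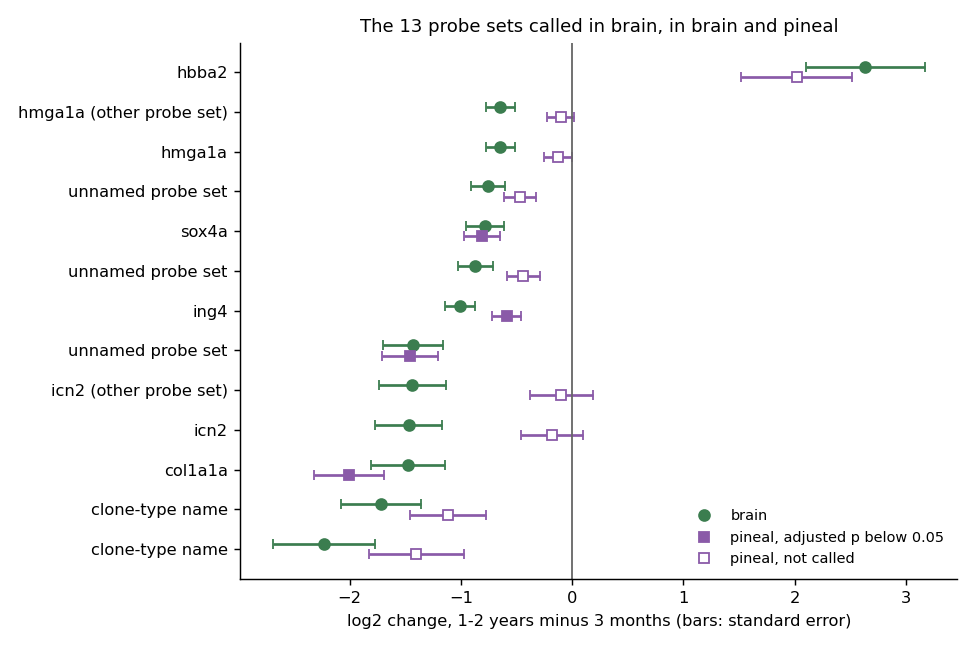
Log2 change from 3 months to 1-2 years for the 13 probe sets called in brain, in brain (circles) and in pineal (squares, filled where called there), with bars for the standard error. All 13 lie on the same side of 0 in both tissues, and 4 of the squares are filled.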

How the data were processed

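The deposited table holds a linear intensity for each of 15617 probe sets on every array. The authors had scaled each array to a common target, as read from the values, and how probes were summarised is not given in the sources used. A constant of 16 was added before log2, all 69 arrays were quantile normalized (array medians had ranged from 7.03 to 7.89), and 115 control probe sets were left out. Symbols came from the platform annotation, updated through RefSeq. Of 15502 probe sets 10795 had 1 symbol, 135 several and 4572 none.

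Tests used limma 3.58.1 in R 4.3.3, with 1 mean for each of 20 groups over all arrays (49 residual and 14.3 prior degrees of freedom), a trend on mean level, two-sided p-values and Benjamini-Hochberg adjustment over all probe sets. The p-values measure the spread between labelled biological replicates, and the number of arrays limits the precision. Errors are standard errors of that fit. The steps were tested on simulated data with independent normal noise for each value. That simulation held no deviation shared by the genes of an array. It therefore does not test how the high-ratio arrays bear on the calls. For each gene the probe set with the highest average on the 12 arrays was used.

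Named genes were, by rule, the called genes of largest change (up to 12 each way, same direction by day and night, log2 level of at least 7, clone-type names counted only), and from each of 35 lists up to 4 called members or else the 2 of highest level. The other genes named were chosen after their values were seen. The members, lists and tests were all chosen with earlier results of these data known. Lists are described by counts and medians, with no test of a list.

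Alternatives were other scalings, constants of 1 and 64, a filter at a log2 level of 7, fewer arrays in the fit, array weights, the GAPDH ratio as a covariate, removal of arrays with a ratio above 3, replicate blocks and each array left out. A fit of the 12 arrays with the ratio as covariate, and one without the old day arrays 1 and 2, were added after seeing the data.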

Additional observations from a re-analysis of the deposited data

How the results depend on the processing

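The 13 age calls became 5 with no scaling and 5 with median centring, 1 with the 12 arrays alone, 25 with the 31 brain arrays alone, 619 with array weights, 4 without the arrays of GAPDH ratio above 3 and 1 without old day arrays 1 and 2. The 8 calls of at least 2-fold became 4, 4, 1 (12 arrays), 196 (weights), 3 (without high ratios) and 0 (without old day arrays 1 and 2). The 14 day calls became 3, 2, 0 (12 arrays), 1146 (weights), 9 (without high ratios, of which 2 were among the 14, with 1 array left per age by day), 0 (without old day arrays 1 and 2) and 0 (12 arrays with the ratio as covariate). The 0 night calls became 9 (31 brain arrays), 303 (weights), 2 (covariate), 2 (without high ratios) and 9 (12 arrays with covariate). For age by time, 0 became 870, 6 and 1 with weights, without high ratios and with 12 arrays and covariate. For age by tissue, 0 became 10 with weights. With the GAPDH ratio as a covariate over all arrays there were 14 age calls, which kept all 13. The fit of the 12 arrays with that covariate gave 19 age calls, of which 4 were among the 13.

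Leaving out 1 adult array gave 1 to 34 age calls, 1 to 20 of at least 2-fold, 0 to 136 by day and 0 to 24 for age by time. Age calls numbered 1 without old night array 2, 3 without young night array 2 or old day array 1, 5 without young day array 3, 7 without young day array 1, 8 without old night array 3 and 34 without old day array 3. Day calls numbered 0 without young day array 3 or old day array 1, 4 without old day array 2, 22 without old night array 3 and 136 without old day array 3. Of the 4 age calls without high ratios, 2 were ing4 and hbba2. The cause of these shifts was not tested. None of the 6 genes called and quoted by name changed sign under any of these alternatives, whereas some uncalled genes named in the text did, elavl3 and cd74a among them. Among the 27 alternatives ing4 was called in 27, hbba2 in 19, icn2 in 14, hmga1a in 12, sox4a in 11 and col1a1a in 10.

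Whether replicate numbers pair the samples is not given in the labels. Between ages, deviations of equally numbered arrays correlated at -0.01, 0.18 and 0.31 by day and 0.00, 0.05 and 0.11 by night. Between brain and pineal of equal age and number they correlated at -0.02 to 0.19 at 3 months and 0.09 to 0.37 at 1-2 years. With the number as a fixed replicate block over the 12 arrays there was 1 age call (1 of at least 2-fold, 0 by day), and with a random block there were 13. For age by tissue either replicate block gave 0.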
